A study of Homo sapiens with 4 samples.

Results

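The splicing factors of the SR and hnRNP families, with proteins that act beside them, were represented by 43 genes, namely 12 SR and SR-like proteins, 4 proteins that recognise the 3′ splice site, 13 hnRNP proteins, 3 polypyrimidine tract binding (PTB) proteins, 8 other regulators of splice site choice and 3 kinases of SR proteins. The members were all probes whose transcript accession belongs to a gene of this list, which gave 71 of the 34127 probes on the array. On all 4 arrays 70 of the 71 were well above background, and 68 probes of 41 genes remained once spots with an outlier flag of the scanner software were left out. SRSF4 and HNRNPH1, with 1 probe each, were lost to that flag. The 21239 probes measured in the same way on all 4 arrays served as the background for every count.

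RNA came from HuCCT1 cells, a line from a human intrahepatic cholangiocarcinoma (a cancer of the bile ducts within the liver), and each of 4 transfections was hybridised to 1 single-colour (Cy3) array. The transfected molecules, at 30 nM, were Pre-miR-376c (a mimic of the microRNA), the Pre-miR negative control, siGRB2 (an siRNA against GRB2, the adaptor that links the activated EGF receptor to Ras) and the siRNA negative control, a non-silencing sequence. All 4 cultures were the same line, were transiently transfected by lipofection, and 24 h later received EGF at 5 ng/ml in medium with 0.1% serum for 24 h, so no array showed cells without EGF. The comparisons addressed which mRNAs differ in EGF-stimulated cells when miR-376c is supplied or GRB2 is targeted. With 1 array per condition no difference between conditions could be tested, and no value below has a replicate error.

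In pre-mRNA splicing, SR proteins bind exonic enhancers through RNA recognition motifs and recruit the splicing machinery through their arginine and serine rich tails, which are phosphorylated by kinases of the CLK and SRPK families. Proteins of the hnRNP and PTB families coat the nascent transcript and often oppose SR proteins by silencing exons, and MBNL, RBFOX, CELF, QKI and TIA proteins promote or repress an exon according to where they bind. Most of these genes are expressed at high level in dividing epithelial cells, and many control the splicing of their own mRNA.

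The microRNA supplied was, by the methods of the study, the mature 3p strand of miR-376c. It is shown because it is the reagent behind the Pre-miR-376c array, in the form RefSeq gives for chr14:101039732-101039752 on the plus strand of GRCh38.p14, 5′ to 3′, with the seed (bases 2 to 8) in capitals.
hsa-miR-376c-3p: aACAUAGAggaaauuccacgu

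HNRNPM and HNRNPR had the highest differences of the 68 probes between Pre-miR-376c and the Pre-miR negative control (given with the hnRNP proteins), so the 250 bases upstream of their annotated starts are shown from RefSeq, 5′ to 3′ on the strand of the gene. For HNRNPM they lie at chr19:8444725-8444974 (plus strand) and for HNRNPR at chr1:23344285-23344534 (minus strand) of GRCh38.p14. Capitals mark matches, on either strand, to 3 short motifs of housekeeping promoters, the ETS core CCGGAA, the CCAAT box CCAAT and the GC box GGGCGG.
HNRNPM: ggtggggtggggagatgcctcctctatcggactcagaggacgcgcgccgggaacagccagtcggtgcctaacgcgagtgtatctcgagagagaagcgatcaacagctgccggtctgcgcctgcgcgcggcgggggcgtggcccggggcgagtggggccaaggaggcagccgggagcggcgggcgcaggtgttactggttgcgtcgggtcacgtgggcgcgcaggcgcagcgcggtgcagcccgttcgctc
HNRNPR: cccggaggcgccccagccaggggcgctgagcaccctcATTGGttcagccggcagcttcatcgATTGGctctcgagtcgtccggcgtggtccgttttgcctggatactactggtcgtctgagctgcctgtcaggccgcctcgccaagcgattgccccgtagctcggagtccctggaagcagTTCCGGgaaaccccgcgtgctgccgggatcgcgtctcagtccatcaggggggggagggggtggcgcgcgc
The HNRNPR window held 1 ETS core and 2 CCAAT boxes, and the HNRNPM window held none of the 3 motifs. Of the 37 member genes found in the RefSeq promoter table, 18.9% had an ETS core, 37.8% a CCAAT box and 67.6% a GC box in this window, against 17.2%, 37.0% and 46.2% of all 27305 genes in the table. The letters describe the windows and say nothing of which factor is bound there.

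Values are log2 of the processed spot signal minus the 75th percentile of the array, so 0 is the 75th percentile itself and a difference of 1 is 2-fold. The 75th percentile signal was 1719 with the siRNA negative control and 1995 to 2689 on the other arrays, and no spot was saturated. The siRNA negative control array stood apart, being the farthest from the median of the other 3 for 55.8% of all probes and for 37 of the 68 member probes (54.4%). The list is therefore compared with both negative controls. The GRB2 signal was 0.62 with the Pre-miR negative control, 0.07 with Pre-miR-376c, -0.10 with the siRNA negative control and -0.65 with siGRB2. It was lowest with siGRB2, but the negative controls differed by -0.72, more than the -0.55 of siGRB2 against its own control. All 9 probes of 7 biliary epithelial markers (KRT7, KRT8, KRT18, KRT19, EPCAM, CDH1, SOX9) were measured on all 4 arrays, while ALB, TTR, COL3A1, PDGFRB and DCN, which mark hepatocytes and fibroblasts, were well above background on none. Of the other markers of those cells, 1 of 4 hepatocyte probes (APOA1) and 1 of 5 fibroblast probes (COL1A1) were well above background on all 4 arrays, as were 3 of 6 leukocyte probes (CD14 and PTPRC) and 2 of 5 endothelial probes (CDH5 and VWF), and their part in the results was not tested. The scanner software gave a difference of the 68 probes an error of 0.20 (median) and at most 0.25, which covers the spot and not the culture.

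Between Pre-miR-376c and the Pre-miR negative control the splicing factors were higher in 45 of 68 probes, with a median difference of 0.13 beside -0.03 for all probes. The largest shift was that of the hnRNP proteins, with a median of 0.29. SR and SR-like proteins had a median of 0.19 and were higher in 17 of 21 probes, whereas the other regulators had a median of -0.16 and were lower in 8 of 12. None of the 68 was 2-fold higher (background 0.532%) or 2-fold lower (background 0.8%), whereas the QKI probe outside the 68, given with QKI, was 2.78-fold higher. At 1.5-fold 2 of the 68 were higher (HNRNPM and HNRNPR, background 2.98%) and 3 lower (RBFOX2, SRSF6 and SF3B1, background 5.94%). Under the 6 alternative scalings and settings for values the median of the list stayed between 0.04 and 0.24, and the share of members that were higher went from 66.2% to 80.9% with a shift to the median of all spots, which moved the median of all probes from -0.03 to 0.09. In RNA of whole cultures, fewer cells expressing a gene and less RNA per cell cannot be told apart.

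Set against the siRNA negative control, the same Pre-miR-376c array gave a list median of -0.07 beside 0.09 for all probes, with 27 probes higher and 41 lower. The sign of that median turned under quantile normalization (0.05) and under normexp background correction (0.10). There 55.9% and 58.5% of the members were higher in place of 39.7%, while the shift to the median left 26.5%. The setting called normexp here and below was followed by quantile normalization, so the effects of these steps cannot be told apart. Of the 68, CELF1 was the 1 probe 2-fold lower (background 2.82%) and none was 2-fold higher (3.06%). At 1.5-fold 6 members were higher (14.5%) and 8 lower (11.6%), both near or under the background share.

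In cells with siGRB2 the splicing factors had a median of -0.19 against the siRNA negative control, beside 0.15 for all probes, and 42 of 68 were lower. SR and SR-like proteins (-0.27), hnRNP proteins (-0.28) and SR protein kinases (-0.46) were on the lower side in their medians, and proteins of the 3′ splice site (0.18) and PTB proteins (0.12) on the higher, though these last 2 turned to -0.10 and -0.16 with the shift to the median. The SR median was -0.09 under quantile normalization and the hnRNP median -0.07 under normexp. Of the 68, MBNL2 was the 1 probe 2-fold higher (background 5.62%) and CELF1 the 1 probe 2-fold lower (2.62%). At 1.5-fold 5 were higher (MBNL2, TRA2A, SRSF6, ELAVL1 and RBFOX2, background 20.7%) and 9 lower (11.3%). The 9 were probes of CELF1, SRSF11, SRSF3, HNRNPA3, HNRNPA1, MBNL1, HNRNPM and SRSF10, the last with both A_23_P352291 and A_32_P45493. The list median kept its sign under every alternative, from -0.08 to -0.47, and 22.1% of members were higher with the shift to the median in place of 38.2%.

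Against the Pre-miR negative control the siGRB2 array lay on the other side, with a list median of 0.10 beside 0.04 for all probes and 45 of 68 members higher. This median turned to -0.06 under normexp, where 42.9% of members were higher in place of 66.2%. None of the 68 was 2-fold higher (background 0.659%) or lower (0.428%), and at 1.5-fold 1 was higher (HNRNPM, background 3.14%) and 3 were lower (SRSF6, RBFOX2 and SF3B1, background 2.67%), measured against the same control array as above. So the direction of the list for siGRB2 depended on which negative control was used, except under normexp. There the median against the siRNA negative control was -0.08, on the same side. The listed kinases, with only 4 probes of 3 genes, were the group whose probes were all lower against both. Of all 21239 probes 8401 were lower against the siRNA negative control and 9417 against the Pre-miR negative control. The share lower against both was not counted, so it is unknown whether the kinases stand out.

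The treated arrays were about as close to each other as siGRB2 was to the Pre-miR negative control. The SD of the differences over all probes was 0.32 between the treated arrays and 0.31 for siGRB2 against that control. Between siGRB2 and Pre-miR-376c the members spanned -0.38 to 0.49 with a median of -0.09 beside 0.06 for all probes, and 45 of 68 were lower with siGRB2. None was 2-fold higher (background 0.81%) or lower (0.377%), nor 1.5-fold higher (4.41%) or lower (1.9%). Of the hnRNP probes 19 of 23 were lower with siGRB2 than with Pre-miR-376c, with a median of -0.16, and with the shift to the median the share of members that were higher fell from 33.8% to 22.1%.

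The negative controls differed from each other by more than either treatment differed from the Pre-miR negative control, with an SD of the differences over all probes of 0.57, beside 0.36 where Pre-miR-376c and 0.31 where siGRB2 was compared with that control. With the siRNA negative control minus the Pre-miR negative control the list median was 0.21 beside -0.11 for all probes, and the hnRNP median was 0.43, with 18 of 23 probes higher. At 2-fold 2 members were higher (CELF1 and HNRNPM, background 2.37%) and 3 lower (SRSF6, RBFOX2 and MBNL2, background 5.39%), and at 1.5-fold 13 were higher (10.9%) and 6 lower (17.7%). The list median was -0.01 under normexp, with 46.8% of members higher in place of 66.2%, and 76.5% were higher with the shift to the median. The hnRNP median stayed above 0 under every setting, at 0.14 or more, and the Pre-miR-376c, siGRB2 and siRNA negative control arrays each had a higher median over the hnRNP probes than the Pre-miR negative control array.

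**Figure D1:**
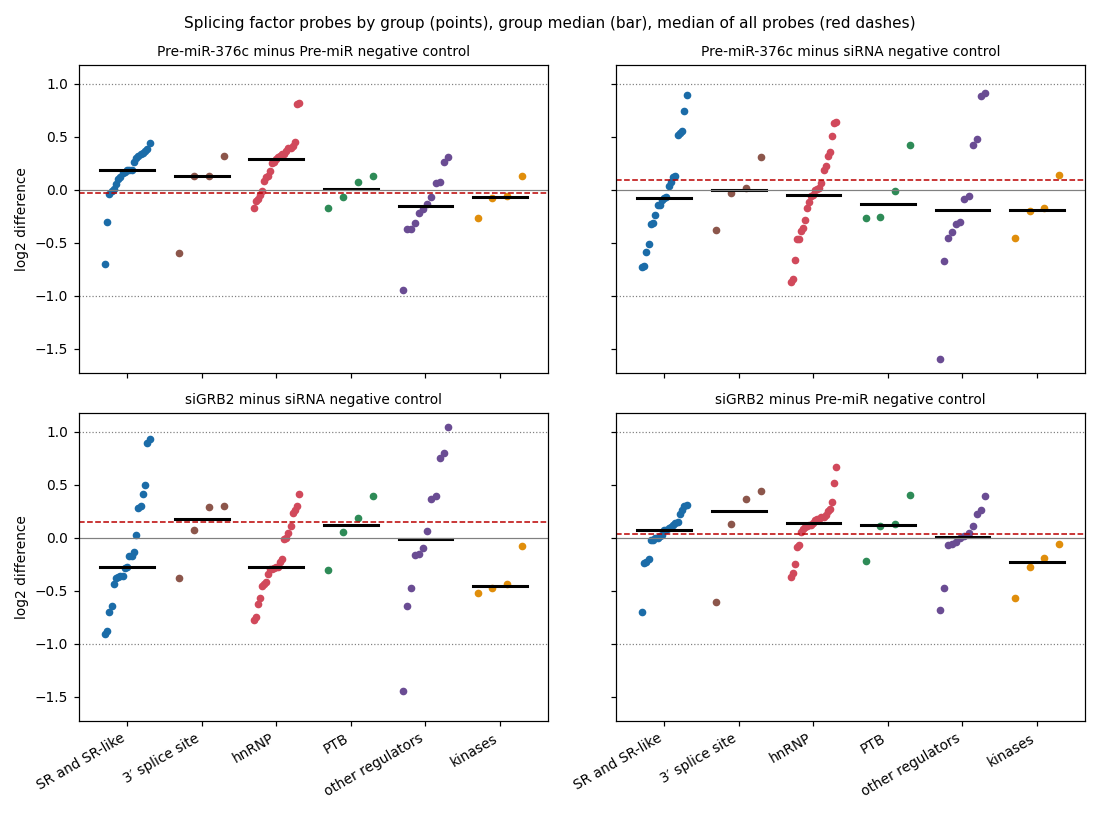
Log2 differences (vertical axis) of the 68 member probes in 6 functional groups for the 4 treatment against control pairs, with each probe a point, the group median a black bar, the median of all 21239 probes a red dashed line and 2-fold limits dotted. The hnRNP and SR medians lie above that of all probes against the Pre-miR negative control and below it against the siRNA negative control.

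Among the SR proteins, SRSF1, the founding member that promotes 5′ splice site choice, had a signal of -2.41 with the Pre-miR negative control, -2.71 with Pre-miR-376c, -2.20 with the siRNA negative control and -2.64 with siGRB2. Both treated arrays were below both controls, and the smallest gap, -0.22, was about the size of the scanner error. SRSF2, which activates many exons and is mutated in myeloid neoplasms, went the other way in both of its probes. Its first probe gave 3.65, 3.99, 3.46 and 3.96 on the arrays in the same order and its second gave 1.30, 1.67, 1.16 and 1.57. On each probe both treated arrays exceeded both controls, by at least 0.31 and 0.27, the widest such gaps of the 68 probes.

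SRSF3, the smallest SR protein and a regulator of proliferation, was brightest with the siRNA negative control on 1 of its probes, at 4.15, 4.53, 5.12 and 4.24 in the order above. The other SRSF3 probe hardly varied, at 2.19, 2.38, 2.34 and 2.21. Against the siRNA negative control siGRB2 was thus -0.88 by the first and -0.13 by the second, the latter turning to 0.03 under quantile normalization. SRSF11, an SR-like protein, had 1 of 3 probes that was likewise brightest by far with the siRNA negative control. This probe, A_33_P3369550, gave 1.07, 1.26, 1.99 and 1.08, while the SRSF11 probe with 10 spots gave 1.84, 1.89, 1.97 and 1.60 with an SD between spots of 0.049 to 0.075. The third SRSF11 probe gave 2.66, 2.67, 2.73 and 2.46, like the one with 10 spots.

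SRSF6, an SR protein that regulates alternative exons in epithelial cells, had probes that did not move together. The probe for its protein-coding transcript gave 2.68, 2.67, 2.59 and 2.90. A probe matched to a non-coding SRSF6 transcript gave -2.08, -2.78, -3.67 and -2.78, highest with the Pre-miR negative control and lowest with the siRNA negative control. Pre-miR-376c and siGRB2 were therefore each -0.70 against the former and 0.89 above the latter. TRA2A, which with TRA2B binds GAA-rich enhancers, stood out only on the siRNA negative control array, at -0.56, -0.61, -1.35 and -0.42.

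The remaining SR probes, of SRSF5, SRSF7, SRSF9, SRSF10 and TRA2B, lay between 0.10 and 0.45 for Pre-miR-376c minus the Pre-miR negative control. The highest of them was a SRSF7 probe, at 2.35, 2.80, 2.94 and 2.66 in the order Pre-miR negative control, Pre-miR-376c, siRNA negative control and siGRB2. Against the siRNA negative control the remaining SR probes spanned -0.72 to 0.56 with Pre-miR-376c and -0.70 to 0.28 with siGRB2. The SRSF10 probe A_32_P45493 was the lowest in both comparisons and the SRSF7 probe A_24_P222911 the highest. With the flagged spots kept, SRSF4 gave 2.72, 2.85, 2.72 and 2.81, which differ by less than the scanner error.

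The 3 listed kinases that phosphorylate SR proteins were lower with siGRB2 than with either negative control on all 4 of their probes. Other kinases of the CLK and SRPK families did not all share this. With siGRB2, CLK2 was 0.98 above the siRNA negative control and 0.004 above the Pre-miR negative control, and SRPK3 was 0.29 and 0.09 above them. In the same order CLK3 differed by -0.25 and 0.003, and SRPK2 by -0.29 and -0.02. CLK1, a nuclear kinase that releases SR proteins from speckles, gave 0.90, 1.04, 1.24 and 0.72 on its first probe and -1.36, -1.62, -1.45 and -1.93 on its second, on which both treated arrays lay below both controls by at least 0.17. CLK4, its close relative, gave -1.64, -1.69, -1.84 and -1.91. SRPK1, the mainly cytoplasmic kinase that allows SR proteins into the nucleus, gave 2.92, 2.84, 3.30 and 2.86. Against the siRNA negative control siGRB2 was -0.52 and -0.48 on the CLK1 probes and -0.44 for SRPK1, beyond the scanner error of 0.20, and -0.07 for CLK4, within it. Against the Pre-miR negative control the second CLK1 probe (-0.57) and CLK4 (-0.28) exceeded that error, and the first CLK1 probe (-0.19) and SRPK1 (-0.06) did not.

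At the 3′ splice site SF3B1, the branch point binding subunit of the U2 particle that is mutated in several cancers, was the member that differed. Its signal was -0.56 with the Pre-miR negative control, -1.15 with Pre-miR-376c, -1.46 with the siRNA negative control and -1.16 with siGRB2. The Pre-miR negative control was the highest array, and both treated arrays were nearly equal, -0.59 and -0.60 below it. U2AF2, which binds the polypyrimidine tract, was highest with siGRB2, at 4.03, 4.16, 4.19 and 4.47. SF1, which binds the branch point first, gave 2.40, 2.71, 2.70 and 2.77, and U2AF1, which reads the AG of the splice site, gave 4.73, 4.86, 5.24 and 4.86.

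HNRNPM, which silences or activates exons in epithelial and mesenchymal splicing programmes, had the largest positive difference of the 68 probes for Pre-miR-376c against the Pre-miR negative control. Its signal was 1.36 with the Pre-miR negative control, 2.18 with Pre-miR-376c, 2.65 with the siRNA negative control and 2.02 with siGRB2. The Pre-miR negative control was the lowest array and the siRNA negative control the highest, with both treated arrays between them. The differences from the Pre-miR negative control were 0.82 for Pre-miR-376c and 0.67 for siGRB2, yet siGRB2 was -0.62 against its own control. HNRNPR, which binds mRNA in nucleus and cytoplasm, gave 0.97, 1.78, 1.78 and 1.49. Here again only the Pre-miR negative control was low, with differences of 0.81 and 0.52 from it, and Pre-miR-376c and the siRNA negative control differed by less than 0.01.

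HNRNPA1, the best known exon silencer of the family, was brightest with the siRNA negative control on both probes, at 0.85, 0.97, 1.84 and 1.10 and at 5.84, 6.02, 6.30 and 5.89 in the same order. Its partner HNRNPA2B1 was dimmest there, at 4.21, 4.55, 3.92 and 4.33, with both treated arrays above both controls by at least 0.12, a gap within the scanner error. A second HNRNPA2B1 probe gave 3.22, 3.17, 2.85 and 3.16. HNRNPA0, a single-exon relative, was lower on both treated arrays, at -0.74, -0.91, -0.53 and -0.98. Genes of the A1, A3 and C types have many processed copies in the genome, so signal from near-identical sequences cannot be told apart from that of the gene.

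HNRNPL, which binds CA-rich silencers, gave 1.09, 1.09, 1.93 and 1.36 and was higher with the siRNA negative control than on any other array. HNRNPK, which binds C-rich RNA, gave 2.48, 2.61, 2.98 and 2.70 on 1 probe and 2.37, 2.66, 2.02 and 2.28 on the other, so that the siRNA negative control was the highest array by the first and the lowest by the second. HNRNPU, a scaffold protein of the nucleus, was higher with Pre-miR-376c and with the siRNA negative control, at -0.44, 0.02, 0.01 and -0.34 on 1 probe and 3.25, 3.62, 3.68 and 3.45 on the other. HNRNPC, HNRNPD and HNRNPF, which package nascent RNA, control mRNA decay and bind G-rich tracts, were 0.26 to 0.41 higher with Pre-miR-376c than with the Pre-miR negative control on all 6 of their probes. Against the siRNA negative control the same 6 probes spanned -0.18 to 0.19 with Pre-miR-376c. That control was itself 0.13 to 0.46 above the Pre-miR negative control on them. HNRNPH1, with its flagged spot kept, gave 3.64, 3.64, 3.65 and 3.52.

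PTBP1, the repressor that keeps neuronal exons out of non-neuronal mRNA, gave -1.38, -1.25, -1.67 and -1.27, both treated arrays lying above both controls by at least 0.11. Its neuronal relative PTBP2 was on the other side, at -0.48, -0.64, -0.39 and -0.69, both treated arrays below both controls by at least 0.17. Neither gap exceeded the scanner error. PTBP3 gave 3.03, 3.11, 3.37 and 3.43 on its brighter spot and 0.08, 0.02, 0.03 and 0.22 on the other.

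**Figure D2:**
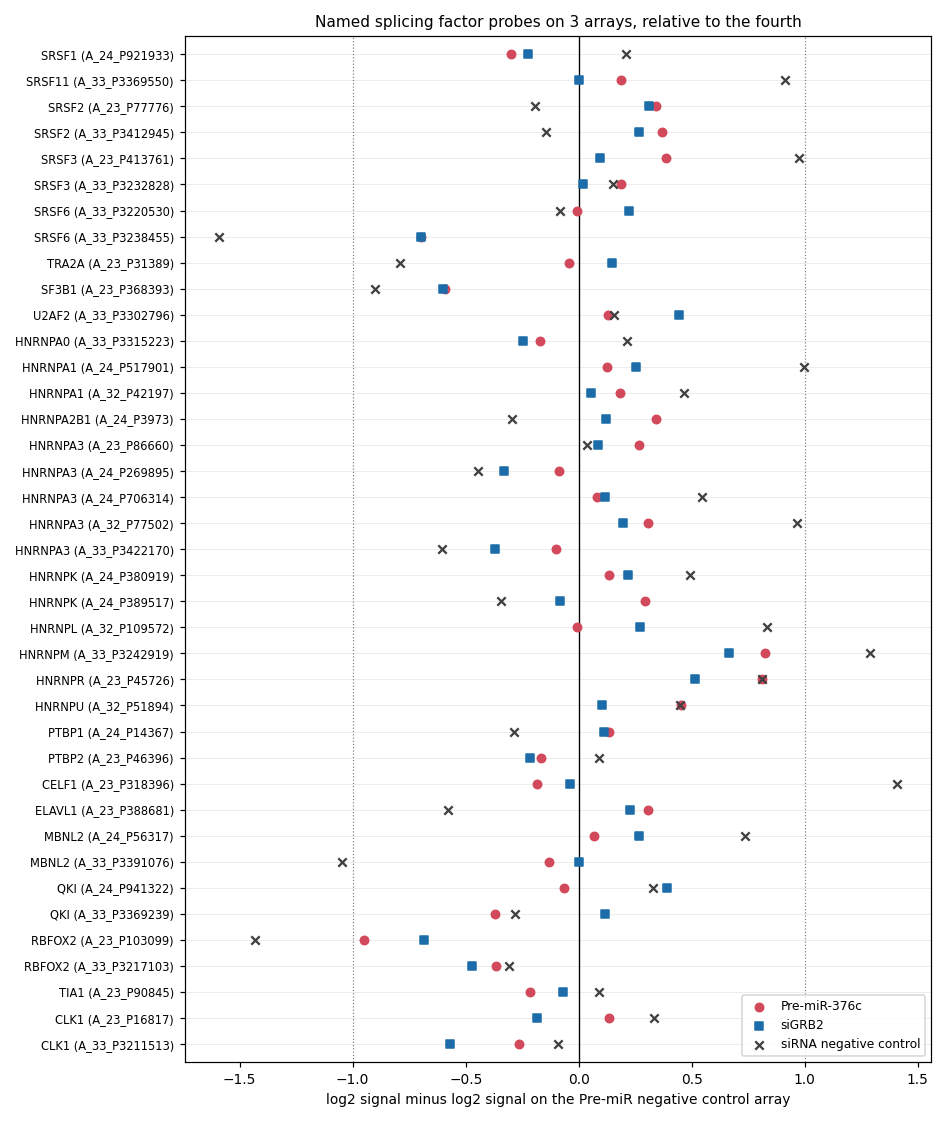
Log2 signal of each named member probe on 3 arrays minus its log2 signal on the Pre-miR negative control array (horizontal axis, 0 at the solid line, 2-fold dotted), with Pre-miR-376c as circles, siGRB2 as squares and the siRNA negative control as crosses. HNRNPM, HNRNPR, SF3B1 and both RBFOX2 probes have all 3 marks on 1 side of 0, and the crosses of CELF1 (1.41) and of the second SRSF6 probe (-1.59) lie farthest out on the right and on the left, respectively.

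RBFOX2, which reads UGCAUG elements and drives epithelial and mesenchymal exon choice, had the lowest difference of the list for Pre-miR-376c against the Pre-miR negative control. Its probe A_23_P103099 was printed as 10 spots, with an SD between spots of 0.054 to 0.063, and gave -0.37 with the Pre-miR negative control, -1.32 with Pre-miR-376c, -1.81 with the siRNA negative control and -1.05 with siGRB2. The Pre-miR negative control was the highest array and the siRNA negative control the lowest. Pre-miR-376c was -0.95 and siGRB2 -0.68 against the former, while siGRB2 was 0.75 above the latter. A second RBFOX2 probe gave -1.16, -1.52, -1.47 and -1.63, with the Pre-miR negative control again the highest array but differences from it of only -0.31 to -0.47.

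CELF1, a GU-rich element binding protein that opposes MBNL proteins, stood out on the siRNA negative control array, at -0.33, -0.51, 1.08 and -0.36. Against that array Pre-miR-376c was -1.59 and siGRB2 -1.45, the largest treatment differences of the 68 probes, and against the Pre-miR negative control they were -0.18 and -0.04. MBNL2 gave 1.33, 1.40, 2.07 and 1.60 on its first probe and -2.01, -2.14, -3.06 and -2.01 on its second, which was matched to another transcript record. The siRNA negative control was thus the highest array by the first and the lowest by the second. MBNL1, the more widely expressed paralog, gave 3.02, 3.29, 3.61 and 2.97.

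ELAVL1 (HuR), which stabilises AU-rich mRNAs, was higher on both treated arrays, at -1.04, -0.74, -1.62 and -0.82, with a smallest gap of 0.23. TIA1, a U-rich element binding protein of stress granules, was lower on both by its first probe, at -0.64, -0.85, -0.55 and -0.71, though by only 0.07, and gave -1.10, -1.41, -0.96 and -1.05 on its second. TIAL1, its relative, gave 1.02, 1.09, 0.67 and 1.04.

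QKI, which binds quaking response elements and changes splicing in the epithelial to mesenchymal transition, had 3 probes. The measured pair gave -4.49, -4.55, -4.16 and -4.09, and -2.17, -2.54, -2.46 and -2.06. The third was not well above background on the siRNA negative control array and so was not among the 68, and it gave -6.78, -5.30, -7.13 and -5.78. Its signals before scaling were 24.5, 52.3, 12.2 and 36.2, while the lowest signal well above background was 21.2 to 24.4 per array. The scanner error of its treatment against control differences was 0.35 to 0.57. Relative to the Pre-miR negative control the Pre-miR-376c array was 2.78-fold and the siGRB2 array 1.99-fold higher, and both were at least 2.02-fold and at least 1.45-fold higher, respectively, than the siRNA negative control, the bound being the lowest signal well above background there. The other QKI probes did not share this order.

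Against the Pre-miR negative control bright and dim members had medians on different sides of 0. The 47 member probes with a mean signal above the 75th percentile had a median of 0.19 for Pre-miR-376c minus the Pre-miR negative control, and 41 of them (87.2%) were higher, beside a median of 0.02 and 53.3% of all 7403 probes in that range. At or below the 75th percentile 4 of 21 members (19.0%) were higher, with a median of -0.17, beside 42.7% and -0.06 of all 13836 probes. For siGRB2 minus the Pre-miR negative control 38 of the 47 bright members (80.9%) were higher beside 58.8% of all bright probes, and 7 of 21 dim members (33.3%) beside 54.0%. The comparison of the negative controls gave 37 of 47 (78.7%) beside 57.2% in the bright range, with a median of 0.38, and 8 of 21 (38.1%) beside 34.1% in the dim range, with a median of -0.28. With the shift to the median all 47 bright members were higher for Pre-miR-376c beside 71.3% of all bright probes, and under normexp 33 of 43 (76.7%) beside 39.2%. For siGRB2 minus the Pre-miR negative control normexp left 47.7% of 44 bright members higher beside 37.0%, with medians of -0.02 for bright and -0.10 for dim members, and between the controls 53.5% of 43 bright members beside 37.5%, with a median of 0.02. Against the siRNA negative control 16 of 47 bright members were higher with Pre-miR-376c (34.0%, median -0.09) and 15 with siGRB2 (31.9%, median -0.28), beside 45.6% and 47.0% of all bright probes. Of the dim members 11 of 21 (52.4%) were higher in each, with medians of 0.01 and 0.07, under the 63.3% and 67.6% of all dim probes. Of these 4 medians, the bright one for siGRB2 alone kept its sign under every scaling, while the bright one for Pre-miR-376c turned to 0.11 under normexp, and with the shift to the median the dim ones turned to -0.15 for Pre-miR-376c and to -0.22 for siGRB2.

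Higher on both treated arrays than on both controls were 10 of 68 member probes (14.7%), under the 21.3% of all probes, and 8 of 68 (11.8%) were lower on both, beside 13.6%. The 10 were both SRSF2 probes and 1 probe each of ELAVL1, HNRNPA2B1, PTBP1, HNRNPA3, TIAL1, SF1, SRSF10 and HNRNPC, the last 2 by less than 0.01. The 8 were SRSF1, HNRNPA0, CLK1, PTBP2, TIA1, RBFOX2, SRPK1 and CELF1, with 1 probe each. Neither share exceeded that of the array as a whole.

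Probes of 1 gene could be compared for 21 members. Within these genes the differences of the probes lay 0.18 apart (median of the highest minus the lowest) for Pre-miR-376c minus the Pre-miR negative control, beside 0.23 for all 3207 genes with several probes, and 0.53 beside 0.52 for the comparison of the negative controls. Probes at least 1 apart occurred in 4 members in the latter (19.0% beside 19.9% of all genes), in 3 for Pre-miR-376c against the siRNA negative control (14.3% beside 16.2%), in 2 for siGRB2 against that control (9.52% beside 17.5%) and in none of the comparisons that left that array out. MBNL2 had the widest spread, 1.78, followed by HNRNPA3 (1.57), SRSF6 (1.51) and RBFOX2 (1.13), all between the negative controls. HNRNPK just reached 1 for Pre-miR-376c against the siRNA negative control. The probes of MBNL2, SRSF6 and HNRNPK were matched to different transcript records of the gene, and those of HNRNPA3 and RBFOX2 to the same record.

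HNRNPA3, an mRNA-shuttling relative of HNRNPA1, shows the spread with 5 probes of 1 transcript record. Its brightest, A_32_P77502, gave 3.72 with the Pre-miR negative control, 4.03 with Pre-miR-376c, 4.69 with the siRNA negative control and 3.91 with siGRB2. A_33_P3422170 gave -0.12, -0.22, -0.73 and -0.49 in that order. The siRNA negative control was thus the highest array by the first probe and the lowest by the second. A_24_P706314 (0.97, 1.06, 1.52 and 1.09) was like the first, A_24_P269895 (1.48, 1.39, 1.03 and 1.15) like the second, and A_23_P86660 lay between (0.04, 0.30, 0.07 and 0.12).

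**Figure D3:**
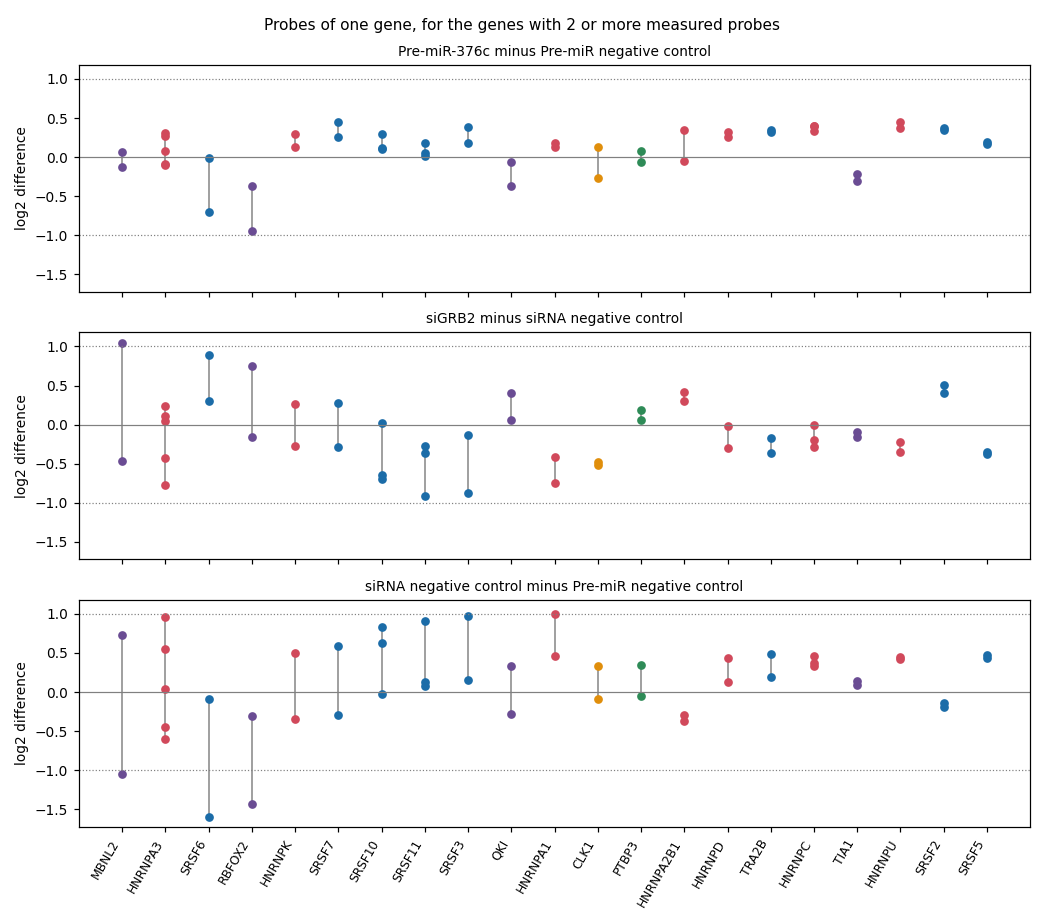
Log2 differences (vertical axis) of each probe, joined by a line within a gene, for the 21 member genes with at least 2 measured probes, ordered by their widest spread and coloured by functional group, with 2-fold limits dotted. The lines are short for Pre-miR-376c minus the Pre-miR negative control and longest between the negative controls, where MBNL2 spans 1.78.

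Of the genes the splicing factors work with, 28 components of the core spliceosome had 36 probes, all measured. Their medians were 0.15 for Pre-miR-376c and 0.06 for siGRB2 against the Pre-miR negative control, and -0.02 and -0.14 against the siRNA negative control. All probes had medians of -0.03, 0.04, 0.09 and 0.15 in the same order. The spliceosome medians of -0.02 and -0.14 turned to 0.09 and 0.01 under quantile normalization and to 0.16 and 0.04 under normexp, which also turned the 0.06 to -0.03. SNRPC, a protein of the U1 particle, was the 1 probe 2-fold higher in both comparisons with the Pre-miR negative control (background 0.532% for Pre-miR-376c and 0.659% for siGRB2). That probe gave 3.41, 4.69, 4.41 and 4.70, so that the Pre-miR negative control was the low array, and the second SNRPC probe gave -3.35, -3.12, -3.99 and -3.16. SF3B4, a partner of SF3B1, was the highest against the siRNA negative control, by 1.68 for Pre-miR-376c and 2.28 for siGRB2, with -3.34, -3.28, -4.97 and -2.68 on the arrays. PRPF31 of the U4 particle was low only with the siRNA negative control by 1 of its probes, at 0.43, 0.15, -0.81 and 0.37, so that siGRB2 was 1.17 above that array and -0.06 against the Pre-miR negative control. SNRNP70 of the U1 particle was lowest for Pre-miR-376c against its control (-0.75), and SNRPD3 of the Sm ring for siGRB2 against its control (-0.84), though siGRB2 and the Pre-miR negative control differed by 0.02 for SNRPD3. Of 31 related regulators 25 genes were measured with 33 probes. None was 2-fold apart for Pre-miR-376c against the Pre-miR negative control (background 0.532% higher and 0.8% lower) or the siRNA negative control (3.06% and 2.82%). HNRNPUL1, a relative of HNRNPU, was the 1 probe 2-fold higher with siGRB2 than with the siRNA negative control (background 5.62%). It was 1.11 above that control and 0.49 above the Pre-miR negative control.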

How the data were processed

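The authors deposited, for each of the 4 single-colour arrays of 1 slide, the spot intensity values of Agilent Feature Extraction (version 10.7 per the labels), and a table of log2 values per probe which, set against the scanner values, equalled the mean log2 processed intensity minus 1 constant per array within 0.01 for 99.5% of probes. The methods name a shift to the 75th percentile in GeneSpring and a 2-fold limit. Here log2 processed intensities were shifted to the 75th percentile of all non-control spots, spots with an outlier flag (289 to 329 per array) were left out, the spots of a probe were averaged, and a probe was used if it was measured and well above background (on more than 0.5 of its spots) on all 4 arrays. The lowest signal well above background was 21.2 to 24.4 per array, and array number, not depth, limits precision. The accession was found among the RefSeq transcripts of GRCh38.p14 for 25422 of 34127 probes, which gave the gene names. Because the array files name another build, these tables served only for names and the sequences shown. No column was left unmapped.

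The labels gave 1 array per condition, so differences of all 6 array pairs, medians and counts past 2-fold and 1.5-fold were described with no test, and between-array error is unknown. The member genes and the other lists were chosen with earlier results of these data known. Probes named were those 2-fold apart in a treatment against control pair, the 3 highest and 3 lowest in each such pair, the 5 with the widest gap between treated and control arrays in each direction, the genes with the 5 widest spreads between probes, the best known genes of the groups (SRSF1, SRSF3, HNRNPA1, PTBP1, QKI, CLK1) and GRB2. Values of other members are given to account for the list. Alternatives were quantile normalization, a shift to the median, the percentile over detected probes, and normexp with an offset of 50 on median signals. The normexp values were then quantile normalized. Further alternatives were the deposited log2 values, flagged spots kept, detection on at least 1 array of a pair, gene means, and limits of 1.5-fold and 3-fold. Work was done in Python 3.11.15 (numpy 2.4.6, pandas 2.3.3, matplotlib 3.10.9) and R 4.3.3 (limma 3.58.1), and the calling step was tested on simulated data.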

Additional observations from a re-analysis of the deposited data

Results flagged for a closer look

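There were 3 probes that differed in opposite directions in the comparisons of each treatment with its own negative control, past 1.5-fold in both. The RBFOX2 probe A_23_P103099 was -0.95 for Pre-miR-376c minus the Pre-miR negative control and 0.75 for siGRB2 minus the siRNA negative control. The SRSF6 probe A_33_P3238455, of a non-coding transcript, was -0.70 and 0.89 in the same comparisons. HNRNPM was 0.82 and -0.62. For each of them the negative controls were the outermost arrays, and the difference between the comparisons was not tested. The share of all probes with such a reversal was not counted, so it is unknown whether the 3 stand out. Between the negative controls 6074 of all 21239 probes were at least 1.5-fold apart.

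The QKI probe A_23_P81760 was not among the 68 since it was not well above background on the siRNA negative control array. It was higher on both treated arrays than on both controls. The log2 difference was 1.0 between the lower treated array (siGRB2) and the higher control array (Pre-miR negative control), with a scanner error of 0.37. The signal on that control array, 24.5, was near the lowest signal well above background there, 21.2. The other QKI probes did not share this order.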

How the results depend on the processing

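No paired analysis was possible because there was only a single array to a condition. The shift to the median moved the median of all probes by over 0.1 in every pair but siGRB2 minus the Pre-miR negative control (0.04 to 0.02), most for siGRB2 minus the siRNA negative control (0.15 to -0.13), and gave list medians of 0.24 (Pre-miR-376c minus Pre-miR negative control), -0.23 (minus siRNA negative control), -0.47 (siGRB2 minus siRNA negative control), -0.21 (siGRB2 minus Pre-miR-376c) and 0.48 (siRNA minus Pre-miR negative control). Under normexp they were 0.036, 0.10 and -0.079 for the first 3, -0.056 for siGRB2 minus the Pre-miR negative control and -0.012 between the controls. Quantile normalization gave 0.047 for Pre-miR-376c and -0.10 for siGRB2 minus the siRNA negative control.

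Members 2-fold apart numbered 0, 1, 2, 0, 0 and 5 for Pre-miR-376c against both controls (Pre-miR first), siGRB2 against both (siRNA first), siGRB2 against Pre-miR-376c, and the controls. At 1.5-fold they were 5, 14, 14, 4, 0 and 19, and at 3-fold siGRB2 against its control had 0 and the controls 1. With the shift to the median Pre-miR-376c against the siRNA negative control had 2, siGRB2 against it 5 and the controls 12. Detection on at least 1 array gave 1 and 2 for Pre-miR-376c. The 2 of siGRB2 became 1 under quantile normalization, normexp, deposited values and gene means, and the 5 of the controls became 2 with gene means. Genes with probes at least 1 apart, recomputed by settings chosen after seeing the data, went from 3 to 1 for Pre-miR-376c against the siRNA negative control under quantile normalization and normexp, and from 2 to 1 and 0 for siGRB2. The cause was not tested for any of these.

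Of 927 values of single probes 868 stayed within the scanner error, and 45 turned sign, all of them 0.26 or less in size before.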
